A study of Mus musculus with 8 samples.

Results

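Defa20, Defa21, Defa22, Defa5, Gm15308, Gm21002, Gm15315, Gm15293 and Gm7861 are 9 of the 27998 genes in the deposited matrices and 9 of the 27 alpha-defensin genes listed for this comparison. They had been chosen by their co-expression in an earlier look at the same UMI counts, as the defensins of Paneth cells (PCs) rich in Defa21 and Gm15308, so their levels and correlations are given as a description, with no test. PCs were taken as cells with at least 20% of their UMIs (unique molecular identifiers, each standing for 1 captured transcript) from genes whose symbol starts with Defa. Of the 9 members, 4 have such a symbol and took part in choosing the PCs, while the 5 members with Gm symbols did not.

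Alpha-defensins are small cationic peptides with disulfide bonds that PCs, secretory cells at the base of small intestinal crypts, store in granules and release against bacteria. In the mouse these peptides are also called cryptdins, and the protease Mmp7 cuts the mature peptide from a longer precursor. Their genes lie in a cluster of close copies, so that the peptides and the messages of several members differ at few positions. Canonical Wnt signaling, whose nuclear effectors are β-catenin and TCF factors, is known to drive PC maturation and defensin expression.

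EpCAM+ cells had been sorted from the small intestinal crypts of 10-week-old mice, and their transcripts were counted cell by cell. The WT group consisted of control mice in which an enhancer reporter sat at H11 (H11 i.enh), and was therefore not plain wild type, whereas the KO group (Ctnnb1 Δi.enh) lacked ieCtnnb1, an enhancer upstream of Ctnnb1, from the germ line and thus in every cell type. The reporter was carried by the controls alone, and both groups were female mice on a C57BL/6 background per the study's methods. Cells of 2 mice per genotype were pooled per a legend of the study, whereas another legend gives 4 control mice and the labels list 4 samples in each group, so the number of animals is unresolved. The values came as 1 matrix per group with 1 barcode suffix, and each group counted as 1 sample. Groups could not be tested against each other, and every interval below is a 95% interval of counting error only.

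The WT matrix held 15987 barcodes and the KO matrix 12763, of which 13095 and 8658 cells passed the limits of at least 200 genes and at most 30% mitochondrial UMIs. Among them 4893 WT cells (37.4%) and 1943 KO cells (22.4%) were PCs, with a median of 17569 and 12767 UMIs. The remaining 8202 WT and 6715 KO cells are called other cells. Over the summed cells the PC label held against its other markers, Lyz1, Ang4, Mmp7, Itln1, Mptx1 and Mptx2. Together these made up 108122 CPM (UMIs scaled to a total of 1000000 per cell set) in WT PCs against 12717 in other cells. In KO the values were 96523 against 8232. Mptx1 alone was not higher in WT PCs (3.18 CPM against 7.80 in other cells; 4.80 against 4.01 in KO). The label was weaker in PCs under 1500 UMIs, which were 23.5% of WT and 38.1% of KO PCs. There the PC markers summed to 75592.5 CPM in WT and 50353 in KO. Enterocyte markers summed to 4319 and 13814 CPM in these shallow PCs, against 876 and 2024 in all PCs and 7820 and 16012 in other cells. Ctnnb1, the gene next to the deleted enhancer, stood at 57.6 CPM in WT PCs (55.9 to 59.3) and 37.8 in KO PCs (36.1 to 39.6). The matrices shared 57 barcodes, 3 of them among PCs.

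All 9 genes lie on chromosome 8 (GRCm38, GENCODE M21), where 8 are on the plus strand and Gm7861 is on the minus strand. Defa21 starts the row at chr8:21025545-21026516, Gm15308 lies at chr8:21529032-21530012, and Gm15315 ends the plus-strand members at chr8:21665797-21666732. RefSeq promoters on GRCm38.p6 (250 bases before to 50 after the start) matched 6 of the 9 members; those of Defa5, Gm21002 and Gm15315 were not used here. The 56 bases that end with the TATAAA box are shown because they set Gm7861 apart from the other members and bear on the Wnt setting of the study. Capitals mark TATAAA and the word ATCAAAG, the reverse complement of CTTTGAT, which TCF factors are known to bind. The first sequence, on the plus strand at chr8:21025464-21025519 for Defa21, was the same in Defa20, Defa22 and Gm15308. Gm15293 is at chr8:21201480-21201535 (plus), Gm7861 at chr8:21594534-21594589 (minus), and the non-members Defa23 and Gm14851 at chr8:21054957-21055012 (plus) and chr8:21096119-21096174 (minus).
Defa21: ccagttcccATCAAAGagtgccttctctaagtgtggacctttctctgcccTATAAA
Gm15293: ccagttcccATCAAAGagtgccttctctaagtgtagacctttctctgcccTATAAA
Gm7861: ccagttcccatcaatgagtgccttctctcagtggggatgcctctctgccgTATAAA
Defa23: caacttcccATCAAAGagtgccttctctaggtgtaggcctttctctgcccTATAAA
Gm14851: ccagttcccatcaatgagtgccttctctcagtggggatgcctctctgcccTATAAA

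In 5 of the 6 members with a promoter the word started 41 bases before TATAAA. Gm7861 had no CTTTGAT on either strand of its 300 bases. The word was also found in 7 of 9 other alpha-defensin promoters, against 1225 of all 32851 RefSeq promoters (3.73%), so it was shared by most of the family rather than by the members. TATAAA on the sense strand stood in 8.32% of all promoters. A match describes these letters only, and binding was not measured.

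Among the transcripts, 3 sets of near copies stood out. Defa20 and Gm15308 were 99.8% identical, as were Gm21002 and Gm15308, and Defa20 and Gm21002 were 99.5% identical. Defa21 and Defa22 were 99.5% identical, Defa5 and Gm15293 99.2%, and Defa5 and Gm15315 98.9%. Gm7861 was 74.9% to 78.9% identical to the other 8 members, which among themselves ranged from 85.6% to 99.8%.

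This likeness limits how far reads can be told apart. Of the 90-base windows of a transcript, 54.7% in Defa21, 54.8% in Defa22 and 81.8% in Gm15293 occurred in no other gene. The share was 24.1% in Gm15315, 8.01% in Defa5, 4.32% in Gm7861 (with 95.7% shared with Gm7849), and 0.298% in Defa20 and in Gm15308. In Gm21002 it was 0 of 337 windows, although the deposited table gave this gene 825158 UMIs in WT PCs. The annotation used for counting is not given in the sources used here, so the values of Defa20, Gm15308 and Gm21002, and the split between them, are uncertain.

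Together the members made up 21.6% of all UMIs of WT PCs and 21.9% of those of KO PCs, and 33.2% and 34.3% of the alpha-defensin UMIs. The whole alpha-defensin list accounted for 65.0% and 63.9% of PC UMIs. Levels below are CPM over the summed PCs, a scale of transcript ends that needs no correction for length. Defa20 was the leading member at 62966 in WT and 63442 in KO. Next came Defa21 at 54188 and 54279, and Defa22 at 45101 and 45072. Gm15308 followed at 26287 and 28245, so these 4 genes held most of the members' UMIs.

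The other 5 members were lower. Gm21002 had 10317 CPM in WT PCs and 9591 in KO PCs, and Gm7861 at 8829 and 10466, so that these neighbours changed places between the matrices. Defa5, the gene of the alpha-defensin widely used as a PC marker, was at 4137 and 4688. Gm15293 stood at 2515 and 2150, and Gm15315 was the lowest at 1236 and 1244. Intervals of neighbouring members within a matrix did not overlap, but the spread between animals is unknown.

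Set among all alpha-defensins, Defa20 ranked 3rd in both matrices, behind Defa24 (200931 CPM in WT and 183099 in KO) and Gm15284 (79174 and 71116). Defa21 ranked 4th in WT and 5th in KO, changing places with AY761184 (50867 and 57258). Defa22 was 6th in both, and Gm15308 was 9th in WT and 8th in KO.

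**Figure D1:**
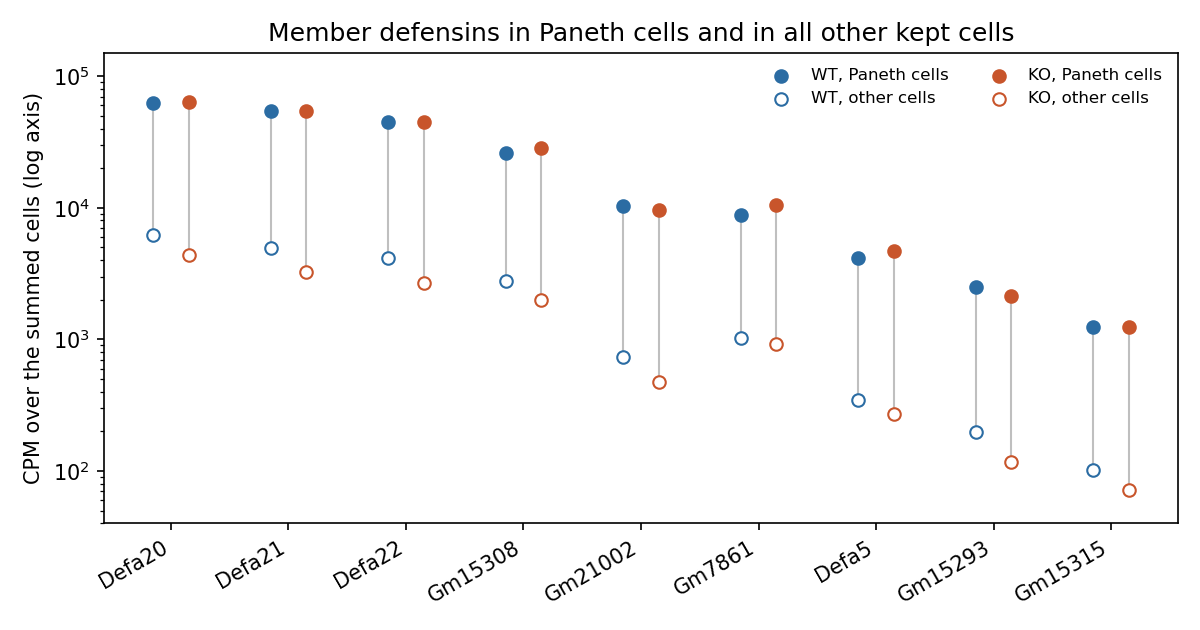
Level of each member in CPM (log axis), summed over PCs (filled points) and over all other kept cells (open points), for WT (blue) and KO (orange), each 1 pooled sample. In each matrix every member is higher in PCs, and Defa20 leads in both cell sets.

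Among single PCs the counts were wide. Defa20 had a median of 372 UMIs per WT PC, with a 5th to 95th percentile of 24 to 2980, and a median of 217 in KO (19 to 5577). Gm15315 had a median of 12 UMIs in WT (0 to 60.4) and 7 in KO (0 to 112). Every PC of both matrices had a UMI of Defa20, Defa21, Defa22 and Gm15308. Gm15315 was found in 84.6% of WT PCs (83.6% to 85.6%) and in 75.04% of KO PCs (73.1% to 76.9%).

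UMIs of the members were not limited to PCs. Other cells carried a mean of 128 member UMIs in WT and 146 in KO, and Defa20 and Defa21 were found in 100% of other cells of both matrices. Gm15315 was found in 44.1% of WT other cells (43.1% to 45.2%) and 39.1% of KO other cells (37.9% to 40.3%), at a median depth of 5793 and 8622 UMIs. After thinning to 1000 UMIs per cell, it was found in 61.6% of WT PCs against 13.0% of other cells, and in 62.6% against 8.93% in KO. Thinning left out 839 WT and 602 KO PCs and 629 WT and 1655 KO other cells that were shallower. In CPM, PCs exceeded other cells by 8.58-fold (Gm7861) to 14.1-fold (Gm21002) in WT, and by 11.3-fold to 20.4-fold for the same genes in KO.

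Classes of other cells were read as the 80 cells richest in the markers of each class, a range by rank and not a type. Tuft cells, chemosensory cells that should lack defensins, had a mean of 95.01 member UMIs in WT and 122 in KO. For the other classes the mean ran from 95.9 in enterocytes to 128 in crypt base columnar cells in WT, and from 98.5 in enterocytes to 158 in enteroendocrine cells in KO. The members made up 35.3% to 36.2% of the alpha-defensin UMIs in the 6 WT classes. In KO it was 33.6% to 35.2% in tuft, cycling, enterocyte and enteroendocrine cells, 30.8% in crypt base columnar cells (30.3% to 31.4%) and 29.6% in goblet cells (29.1% to 30.2%). Defa20 made up 30.3% to 31.0% of member UMIs in the WT classes, against 29.2% in WT PCs. Member UMIs in tuft cells are thus the background against which shares of other cells with a UMI are read, and no expression outside PCs is read from them. Lymphocytes could not serve, as the 80 richest cells had a median of 1 marker in WT and 0 in KO.

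A small set of other cells stood apart from this background. In 119 WT other cells (1.45%, 1.20% to 1.73%) and 151 KO other cells (2.25%, 1.91% to 2.63%) the members made up less than 20% of the alpha-defensin UMIs. These cells had a median of 1370 and 1603 alpha-defensin UMIs, against 324 and 306 in other cells with a member share of at least 30%. Lyz1, lysozyme of PC granules, was at 20621 CPM in the WT set and 15545 in the KO set, against 4724 and 2773. Of these cells, 87 in WT and 76 in KO had 10% to 20% of their UMIs from Defa symbols, just below the PC limit.

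Within PCs the members did not take a fixed share of the alpha-defensin UMIs. Shallow and deep PCs were read apart, because 1152 WT PCs (23.5%) and 740 KO PCs (38.1%) had fewer than 1500 UMIs. In these shallow PCs the member share had a median of 37.0% in WT and 35.3% in KO, close to the 35.7% and 34.9% of other cells, with 5 and 0 cells below 20%. In KO, 0 of 740 cells allows a share of up to 0.497% of cells (exact binomial). Whether the shallow barcodes are PCs or carry free defensin RNA was not tested.

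The 3289 WT and 1024 KO PCs with at least 5000 UMIs behaved differently and spread over a wide range with a high and a low part. Their median member share was 35.6% in WT (5th to 95th percentile 6.51% to 49.6%) and 38.2% in KO (5.93% to 49.2%). A share below 20% was found in 1080 WT cells, or 32.8% (31.2% to 34.5%), and in 235 KO cells, or 22.9% (20.4% to 25.6%). At least 30% was reached by 1893 WT cells (57.6%) and 680 KO cells (66.4%). Shares within 2 points of the 20% limit were seen in 122 WT and 33 KO cells.

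Depth moved with this difference between the matrices. Of PCs with 5000 to 20000 UMIs, 57.7% of 1122 in WT (54.7% to 60.6%) and 21.3% of 89 in KO (13.4% to 31.3%) had a low share. Above 20000 UMIs the values were 19.98% of 2167 WT cells (18.3% to 21.7%) and 23.1% of 935 KO cells (20.4% to 25.9%), so the order of the matrices was the opposite and the intervals overlapped. The part of depth in the difference was not tested.

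**Figure D2:**
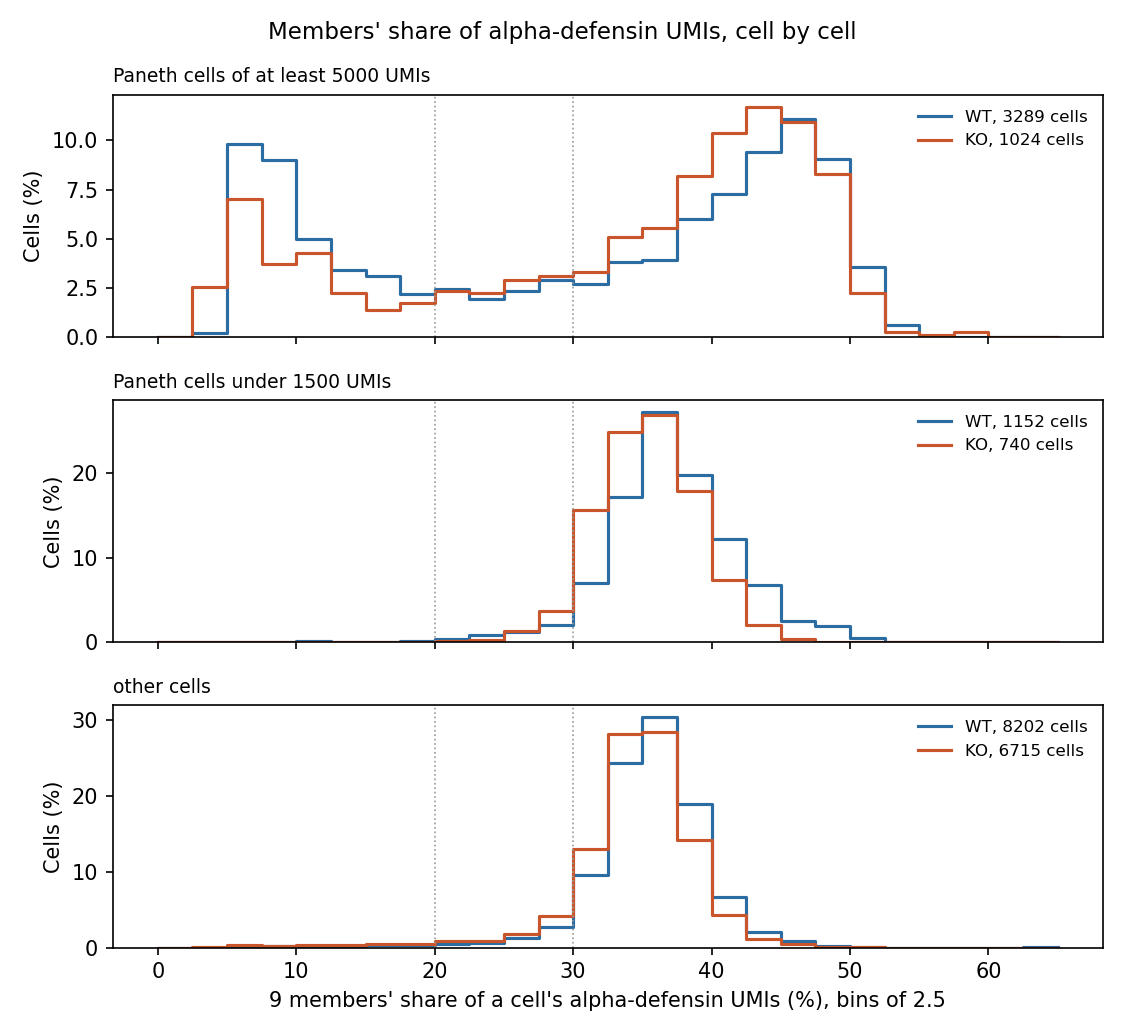
Histogram of the members' share of each cell's alpha-defensin UMIs (x axis, %) as a percentage of cells (y axis), for PCs of at least 5000 UMIs, PCs under 1500 UMIs and other cells, in WT (blue) and KO (orange), with dotted lines at 20% and 30%. Deep PCs show a low and a high part, with 32.8% of WT and 22.9% of KO cells below 20%, while shallow PCs and other cells form a single peak near 35%.

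Deep PCs with a low share (below 20%) and with a high share (at least 30%) were set side by side. As the members define the share, these values describe which members carry it and test nothing. Low-share PCs still had a mean of 1243 member UMIs in WT and 2408 in KO, well above the 128 and 146 of other cells. Alpha-defensins took 63.2% of UMIs in low-share and 66.8% in high-share WT PCs, and 60.5% and 66.0% in KO, so the sets differed in which defensins were found more than in how much.

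Gm15308 differed most, at 4662 CPM in low-share and 37409 in high-share WT PCs, which is 8.02-fold, and 10.2-fold in KO. Defa20 differed 5.23-fold in WT and 5.47-fold in KO, Defa22 4.62-fold and 5.29-fold, Defa21 4.38-fold and 4.76-fold, and Gm21002 4.34-fold and 5.94-fold. The lower genes differed less: Gm15315 by 2.49-fold and 3.16-fold, Defa5 by 1.85-fold and 1.92-fold, and Gm15293 by 1.84-fold and 1.98-fold. Gm7861 differed by 1.04-fold in WT (8631 and 8980) and 1.13-fold in KO (9587 and 10791). The members were thus graded, with Gm15308 at one end and Gm7861 close to level.

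Other alpha-defensins went the opposite way. AY761184 was 2.04-fold higher in low-share than in high-share WT PCs and 2.19-fold in KO, Defa23 1.86-fold and 1.84-fold, Gm14851 1.58-fold and 1.53-fold, and Defa24 1.44-fold and 1.35-fold. Gm10104, an alpha-defensin outside the group, went with the members and was 3.15-fold and 4.43-fold higher in high-share PCs. Low-share PCs were shallower, with a median of 17968 UMIs against 25754 in WT and 40402 against 48418 in KO. The 7 goblet markers summed to 21183 CPM in low-share and 15623 in high-share WT PCs, and to 15329 and 10576 in KO, all below the 34074 and 20319 of other cells. Single markers differed in direction. Tff3 went with the sum (2531 and 1802 CPM in WT, 1329 and 988 in KO). Muc2 did not (967 and 1000 in WT, 408 and 470 in KO). In all, 7 of 7 goblet markers had a UMI in the PCs of both matrices, and their part in the difference was not tested.

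**Figure D3:**
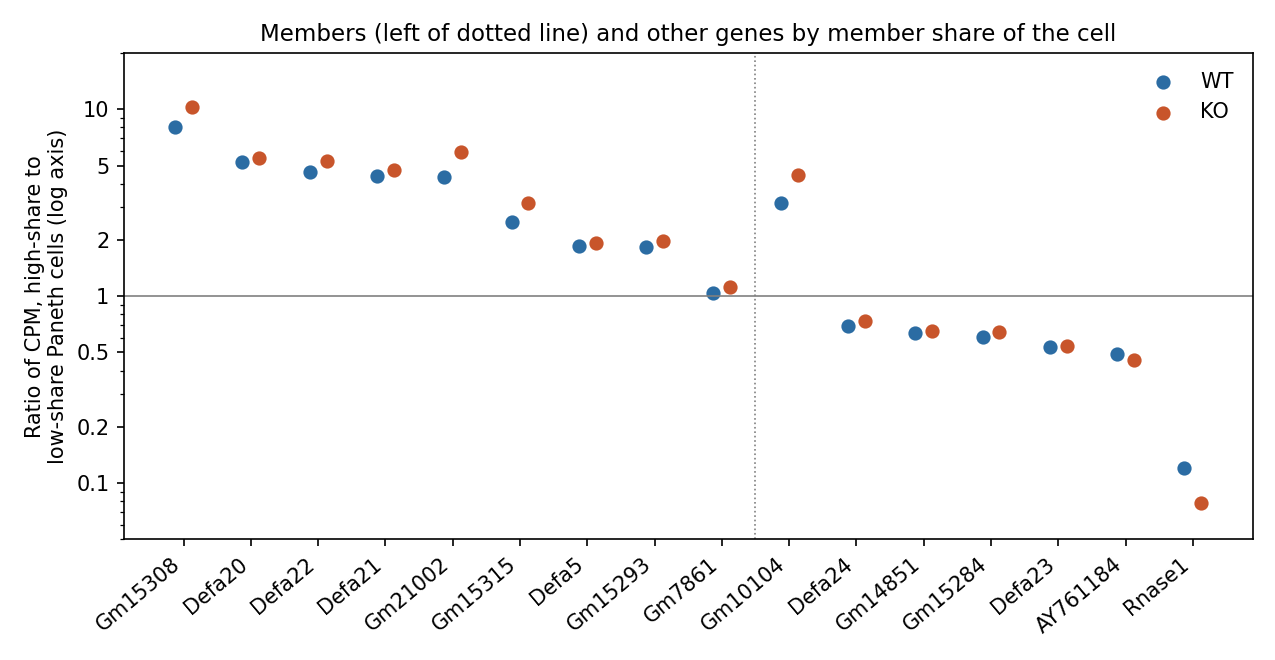
Ratio of CPM in PCs of at least 5000 UMIs with a high member share (at least 30%) to those with a low share (below 20%), on a log axis, for the members (left of the dotted line) and other genes, in WT (blue) and KO (orange). Gm15308 is highest among the members at 8.02-fold and 10.2-fold, Gm7861 lies near 1, and Rnase1 is lowest.

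Correlations between genes were computed over PCs thinned to 5000 UMIs each, as Pearson's r of log2(1 + UMIs), which left out 1604 WT and 919 KO shallower PCs. Points are cells of 1 library with a common denominator, and near copies share reads, so these values carry no test. Over the 36 pairs of members the mean r was 0.60 in WT (0.10 to 0.95) and 0.61 in KO (0.15 to 0.96). The pairs with the highest values were near copies: Defa20 and Gm21002 (0.95 in WT and 0.96 in KO), Defa21 and Defa22 (0.94 and 0.93), and Gm15308 and Gm21002 (0.91 and 0.90). Genes of different sets also varied together, as Defa20 and Defa22 did at 0.89 and 0.88.

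Likeness of sequence and of level did not always go together. Defa5 and Gm15315 had r = 0.47 in both matrices at 98.9% identity, whereas Gm15315 reached 0.66 and 0.67 with Defa20 at 89.9% identity. After thinning, mean counts in WT were 6.02 UMIs for Gm15315, 19.7 for Defa5 and 296 for Defa20. Counting error lowers r more at low counts, and its part in this contrast was not tested. Gm7861 varied apart from its listed group, with a mean r of 0.17 in WT and 0.23 in KO to the other 8 members. Without Gm7861 the mean of the 28 pairs was 0.72 and 0.71. Gm7861 was closer to Gm14850 (0.36 and 0.45), so the data go against placing it in the group.

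Outside the group, Gm10104 and Gm14850 varied with the 8 remaining members. The mean r was 0.53 in WT and 0.51 in KO for Gm10104, and 0.37 and 0.44 for Gm14850. Opposite values were found for Defa17 (-0.55 and -0.36), AY761184 (-0.49 and -0.48) and Defa24 (-0.48 and -0.26). Defa23 was at -0.30 and -0.21 and Gm14851 at -0.18 and -0.07. Because the thinned total is fixed, a higher count of some defensins lowers others, and negative values are read with that limit.

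**Figure D4:**
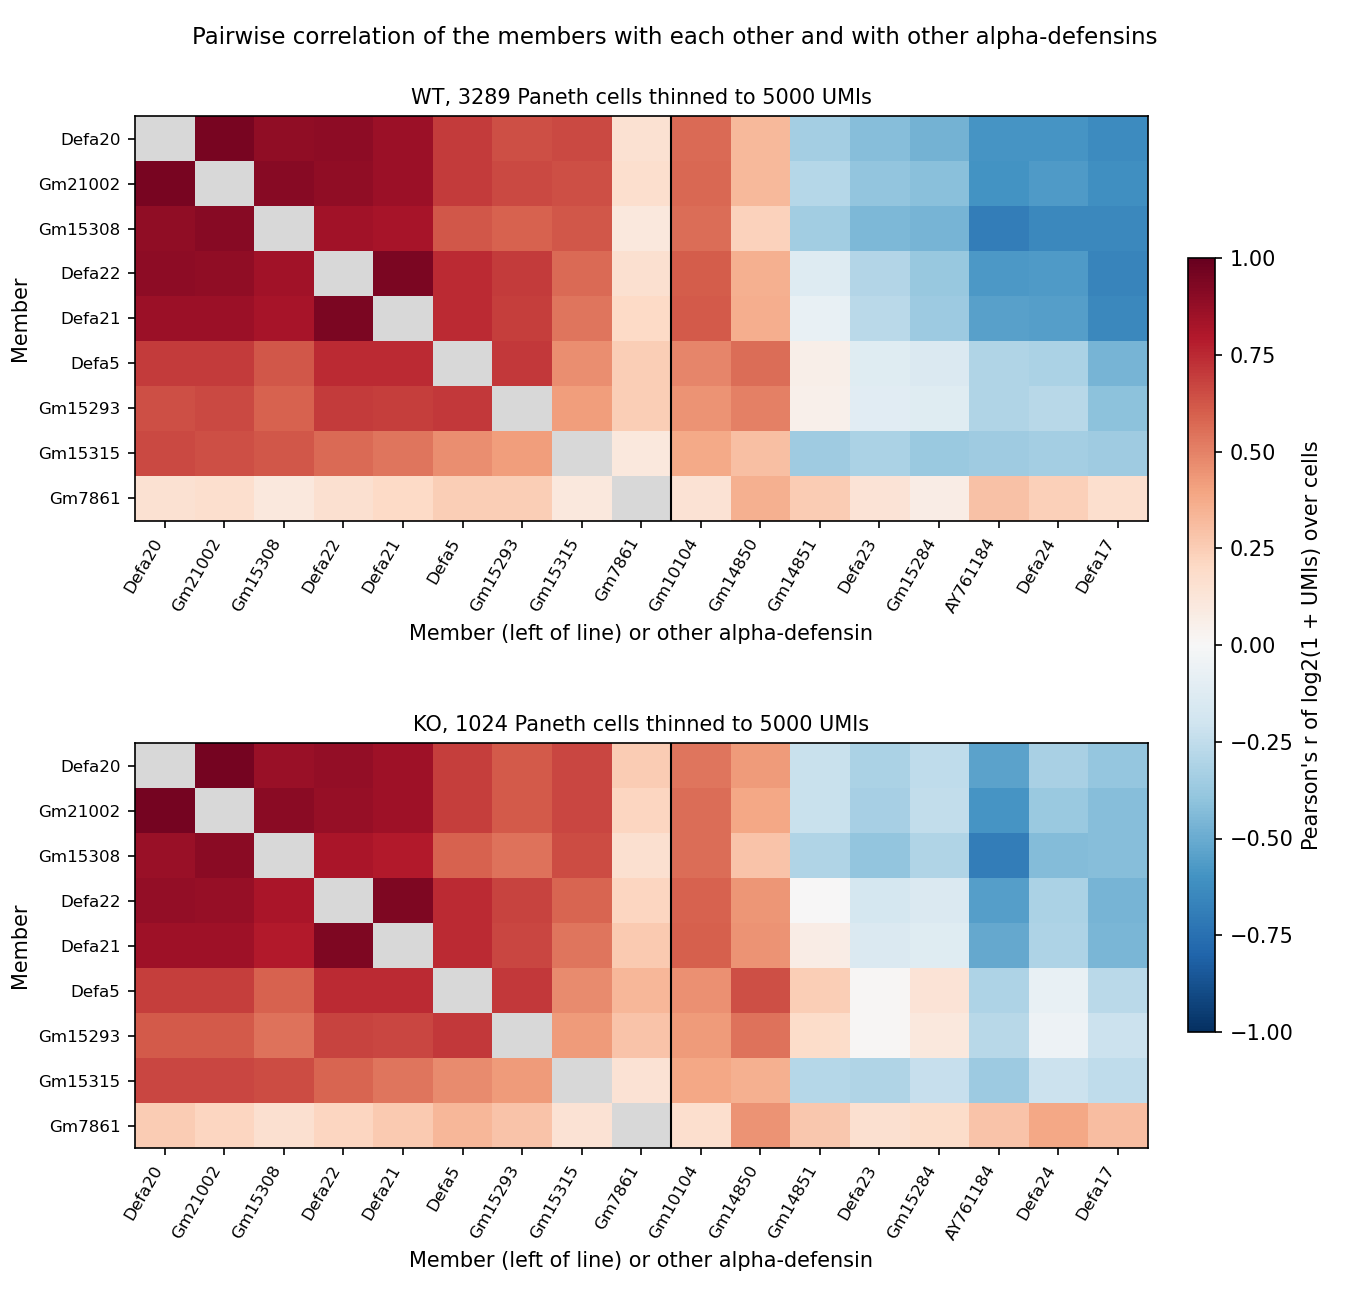
Pearson's r (colour, -1 to 1) of log2(1 + UMIs) between each member (rows) and members or other alpha-defensins (columns, left and right of the line) over 3289 WT (top) and 1024 KO (bottom) PCs thinned to 5000 UMIs; grey marks a gene with itself. Of the members, 8 vary together and Gm7861 is pale against them, while Gm10104 and Gm14850 vary with the members and AY761184, Defa24 and Defa17 against them.

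Genes outside the alpha-defensins were ranked by Pearson's r between the member share of a PC and log2(1 + UMIs of the gene per 10000 UMIs outside the alpha-defensin list), over 4893 WT and 1943 KO PCs and 474 genes. The lowest was Rnase1, a secreted ribonuclease, at -0.71 in WT and -0.60 in KO. In deep PCs Rnase1 was at 565 CPM in low-share and 68.1 in high-share WT PCs (8.30-fold higher in low-share PCs), and at 510 and 39.7 in KO (12.8-fold). Rnase1 in high-share PCs was thus close to or below the 67.5 and 77.1 CPM of other cells. Klk1, a kallikrein protease, followed at -0.32 and -0.27, Reg4, a lectin of the Reg family, at -0.33 and -0.21, Clps, colipase, at -0.32 and -0.19, and Spink4, a protease inhibitor and goblet marker, at -0.26 and -0.18.

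Over all PCs the positive values were smaller in size than that of Rnase1. Reg3g, an antibacterial lectin, was at 0.20 in WT and 0.19 in KO, and Guca2a, the precursor of guanylin, at 0.12 and 0.14. Nupr1, a stress-induced nuclear protein, was at 0.09 and 0.16, and Gm1123 at 0.09 and 0.11. In PCs of at least 5000 UMIs the values were 0.52 and 0.46 for Reg3g, 0.53 and 0.52 for Guca2a, 0.40 and 0.49 for Nupr1 and 0.33 and 0.42 for Gm1123. In the same deeper PCs Rnase1 was at -0.78 and -0.78, Clps at -0.49 and -0.38, Reg4 at -0.41 and -0.31, Klk1 at -0.32 and -0.33, and Spink4 at -0.14 and -0.14. Gm42418, a transcript that overlaps ribosomal RNA, was at 0.17 and 0.11 but at -0.10 and 0.05 in the deeper PCs, so its sign in WT depended on the shallow barcodes.

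The remaining PC products varied with the member share to different degrees over all PCs. Guca2b, the precursor of uroguanylin, was at -0.28 in WT and -0.14 in KO. Lyz1 was at -0.07 in WT and 0.04 in KO, Mptx2 at 0.06 and 0.03, and Ang4, an antibacterial angiogenin, at -0.14 and 0.02. Mmp7 was at -0.13 and -0.03, and Itln1, an intelectin, at -0.27 and -0.10. In PCs of at least 5000 UMIs Guca2b was at -0.37 and -0.23, and Agr2, a protein of the secretory pathway, at 0.31 and 0.20.

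KO PCs were then compared with WT PCs. The members' share of all UMIs gave a log2 ratio of KO to WT of 0.024 (0.023 to 0.025), and their share of alpha-defensin UMIs gave 0.049 (0.048 to 0.050). As 4 members helped to choose the PCs, the first is a description. It turned to -0.033 with a limit of 10% instead of 20% and to -0.068 as a mean over single cells, so no direction is given for it. Counting error is far below these shifts, and the spread between animals is unknown.

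None of the 9 members reached a 1.5-fold difference between KO and WT PCs, where 35.9% of the 11096 genes with at least 50 UMIs did (11.1% higher and 24.8% lower in KO). The members' median log2 ratio was 0.01, with 6 above and 3 below 0, beside a median of -0.17 over all genes (quartiles -0.58 and 0.27). Defa20 (0.01), Defa21 (0.00), Defa22 (0.00) and Gm15315 (0.01) lay closest to 0. Gm7861 was highest at 0.25 (0.24 to 0.25), followed by Defa5 at 0.18 (0.17 to 0.19) and Gm15308 at 0.10 (0.10 to 0.11). Gm15293 was lowest at -0.23 (-0.24 to -0.22), with Gm21002 at -0.11 (-0.11 to -0.10).

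Scaling moved these values. Per UMI outside the alpha-defensin list the members' median was -0.04, with 3 above 0, beside -0.22 over all genes. On that scale 9.35% of genes were at least 1.5-fold higher and 27.6% at least 1.5-fold lower in KO, and 0 of 9 members were. The signs of Defa20, Defa21 and Gm15315 turned, whereas Gm7861 (0.20), Defa5 (0.13) and Gm15308 (0.06) stayed above 0 and Gm15293 (-0.27) and Gm21002 (-0.15) below. Among 14 other alpha-defensins with enough UMIs, the median was -0.14 per UMI, with 3 above and 11 below 0 and 1 past 1.5-fold, Gm15299, which was lower in KO. Of 25 PC products and maturation genes, 3 were at least 1.5-fold higher and 7 lower in KO in CPM, with a median of -0.18. In CPM 11.1% of all 11096 genes were higher and 24.8% lower, with a median of -0.17. The list was thus near the share of all genes. Higher were the antibacterial lectins Reg3b at 1.91 and Reg3g at 0.75 and the pentraxin Mptx1 at 0.59. Mptx1 was low, with 254 UMIs in WT PCs and 229 in KO PCs, and its interval of 0.33 to 0.86 held the 1.5-fold limit. The receptor Kit at -1.75 and Reg4 at -0.66 were among the lower genes. Levels outside PCs moved with those of Reg3b and Reg3g. Reg3b had 2937 CPM in WT other cells and 11703 in KO other cells, against 393 and 1482 in PCs. Reg3g was at 1557 and 5157 against 1380 and 2324. All 9 enterocyte markers had a UMI in the PCs of both matrices and summed to 876 CPM in WT PCs and 2024 in KO PCs, and their part in these differences was not tested.

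**Figure D5:**
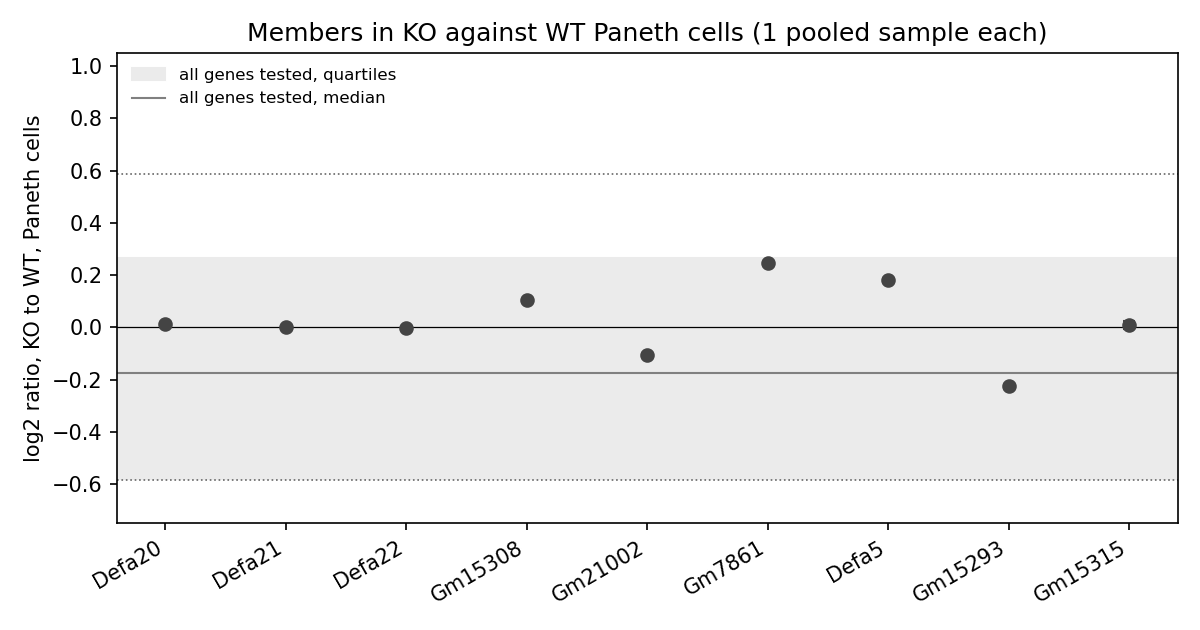
Log2 ratio of KO to WT in CPM of summed PCs for each member (points; 95% counting intervals are mostly smaller than the points), with the median (grey line) and quartiles (grey band) of 11096 genes and dotted lines at 1.5-fold. All 9 members lie between -0.23 and 0.25, inside both the band and the dotted lines.

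In other cells the members summed to 20514 CPM in WT and 14124 CPM in KO (log2 ratio -0.54, -0.54 to -0.53). KO other cells were deeper, and the mean number of member UMIs per cell was higher in KO (146 against 128). As a mean over single cells the log2 ratio turned to 0.11, so no direction is given for it. PC numbers and cell depth differed between the matrices along with it, and their part was not tested.

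The limit that set the PCs can be read from the cells beside it. In WT, 495 cells had 18% to 20% of UMIs from Defa symbols and 486 had 20% to 22%, with a median of 977 and 909 UMIs. In KO there were 606 and 471 such cells, with 701 and 704 UMIs. The members' median share of alpha-defensin UMIs was 36.4% and 36.7% in WT and 34.9% and 35.1% in KO, so cells on both sides of the limit were shallow and alike in this measure.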

How the data were processed

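Per the labels, libraries were made with a 10x Genomics 3' v2 kit from EpCAM+ crypt cells. The authors deposited raw UMI counts per gene and barcode in 1 matrix per group; the submitters' processing notes name Cell Ranger 2.1.1 and build mm10, whereas the matrix headers name Cell Ranger 4.0.0. The annotation used for counting is not given in the sources used here.

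Cells with at least 200 genes and at most 30% mitochondrial UMIs were kept, as in the study. No doublet caller was run and doublets were kept. UMIs were summed per matrix and cell set, with exact Poisson, conditional binomial and Clopper-Pearson intervals (95%), which cover counting error only. Depth was 134876816 UMIs in WT and 123794575 in KO. With 1 pooled sample per group no test was run. A 1.5-fold difference among genes with at least 50 UMIs was the size rule for naming calls. Correlations used cells thinned to 5000 UMIs. Named genes were the 9 members, the 5 leading other alpha-defensins, Defa23 and Gm14851, a fixed list of 26 PC products (25 in the files), and the 5 highest and 5 lowest genes by correlation with the member share among genes with a mean of at least 1 UMI per PC; Gm10104, Gm14850, Defa17, Gm15299 and the alternatives marked as added were chosen after their values were seen. The members and lists were chosen with earlier results of these data known. Transcripts were aligned and promoter words searched with Biopython 1.88; other steps used Python 3.11.15, numpy 2.4.6, scipy 1.17.1 and pandas 2.3.3. Steps were tested on simulated data.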

Additional observations from a re-analysis of the deposited data

Results flagged for a closer look

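Barcodes that the filters removed had a higher CPM of the members than other kept cells (20514 CPM in WT and 14124 in KO). They were flagged as data outside the comparisons. In WT the members made up 84526 CPM of the 994 barcodes with fewer than 200 genes, and 61655 in the 1898 barcodes over the mitochondrial limit. In KO the values were 61023 in 21 barcodes and 48894 in 4084 barcodes. The members' share of alpha-defensin UMIs was 36.6% and 36.4% in these WT sets and 34.9% and 35.3% in the KO sets, beside a median of 37.0% and 35.3% in PCs under 1500 UMIs. Per barcode the order was the opposite, with a mean of 48.3 to 88.7 member UMIs in these sets against 128 (WT) and 146 (KO) in other kept cells. The removed sets were shallower, with a median of 764 to 1426.5 UMIs against 5793 and 8622. The source of their member UMIs was not tested.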

How the results depend on the processing

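No paired analysis was possible because each group was 1 pooled matrix and no result came from a test. The KO to WT log2 ratio of the members' share of all UMIs (0.024) was -0.033 with a Defa limit of 10%, 0.11 with 30%, 0.016 with PCs taken by at least 2% Lyz1, 0.0030 without the 10% deepest cells, -0.068 as a mean over single cells and, in alternatives added after the data were seen, 0.022 in PCs of at least 5000 UMIs, 0.014 without Gm7861 and 0.071 as a mean over PCs of at least 5000 UMIs. For the share of alpha-defensin UMIs (0.049) the values were 0.035, 0.088, 0.053, 0.046 and 0.076 in the same order, with 0.039 without Gm7861 and 0.11 as a mean over the deeper PCs. In other cells (-0.54) they were -0.79, -0.32, -0.83, -0.67 and 0.11, with -0.57 at a mitochondrial limit of 15%, -0.60 with at least 500 genes and -0.56 without Gm7861. The mean correlation of members in KO (0.61) was 0.68, 0.53 and 0.67 with the limits of 10% and 30% and with Lyz1. Thinned to 2000 UMIs it was 0.51 in both WT and KO, and without Gm7861 it was 0.72 in WT and 0.71 in KO. Of 81 member ratios under alternatives, 7 turned sign among members whose main interval left out 0: Defa20 and Defa21 to -0.046 and -0.057 at 10%, to -0.018 and -0.034 without the deepest cells and to -0.035 and -0.044 per UMI outside the alpha-defensin list, and Defa21 to -0.0034 with Lyz1. Defa22 and Gm15315, whose main intervals held 0, took values of both signs (-0.060 to 0.087 and -0.039 to 0.073). The causes were not tested. Depth sets the counting intervals, and with 1 sample per group the spread between animals could not be measured.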
